A study of Gallus gallus with 28 samples.

Results

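CD83 was followed across all 28 Affymetrix arrays of a study of BTK in the chicken B-cell lymphoma line DT40. Every probe set that the platform table assigns to CD83 was taken, which gave 1 of the 38382 probe sets tested and 1 of 13009 genes. The gene was chosen with values of these arrays known, and its response to stimulation was assumed to be the basis. Its levels in stimulated against unstimulated cells are therefore described without a test, and tests are given only for comparisons of unstimulated arrays and of serum batches. The unstimulated 6 h arrays were also the baseline of that response. If line differences played a part in the choice, the tests between lines would not be independent of it. Stimulated 6 h arrays also entered the serum batch test and the estimate of spread in tests that used all serum batches.

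CD83 is a membrane glycoprotein of the immunoglobulin superfamily, best known as a marker of mature dendritic cells. In human and mouse it also appears on activated B cells. There it keeps MHC class II and CD86 at the cell surface by opposing ubiquitin ligases of the MARCH family. In human cells its promoter and enhancer are bound by NF-kB and IRF factors, and its mRNA leaves the nucleus by an unusual route that uses the RNA-binding protein HuR (ELAVL1) and the export receptor CRM1 (XPO1). In B cells the antigen receptor reaches NF-kB through SYK, BTK, PLCG2 and protein kinase C beta.

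The lines were B41-13 (BTK knockout cells reconstituted with human BTK), B46-5 (the same knockout given kinase inactive human BTK), B7.10 (the BTK knockout itself) and parental DT40 with its endogenous BTK. BTK is a Tec-family tyrosine kinase downstream of the antigen receptor of B cells. Cells were collected 2 h or 6 h after stimulation, or 24 h or 6 h without it. The stimulus is labelled as IgM (M4), and M4 is known as an antibody against chicken IgM. B7.10 and DT40 were grown in 3 batches of fetal calf serum, which gave 3 arrays for each of stimulated 6 h, unstimulated 24 h and unstimulated 6 h. B41-13 and B46-5 at every condition, and all lines at stimulated 2 h, had a single array from serum batch 1. RNA of 10 repeated experiments had been pooled for each array. In tests over the 3 serum batches a p-value measures the spread between such pools, which may be technical. Fits within serum batch 1 have a single array per line and condition. Their p-values rest on how far line differences vary between conditions, or responses between lines, moderated by the spread of all probe sets. They do not measure the spread of repeated pools. An unstimulated 2 h group was not analysed here, so in the 2 h comparison the stimulus and the time in culture cannot be told apart. The labels give each line as a single culture line, and do not say how much protein the added constructs make.

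Array medians lay between 4.37 and 4.50 log2. RMA brings arrays to 1 distribution, so these medians cannot show whether an array stood apart in overall level. For 5 arrays the description or the source name contradicts the title, which was followed here. These were B41-13 stimulated 6 h, B46-5 stimulated 6 h and unstimulated 24 h, and B7.10 stimulated 6 h of serum batches 2 and 3. The chicken BTK probe set had a median of 5.89 log2 in B41-13 (4 arrays), 5.26 in B46-5 (4 arrays) and 4.98 in B7.10 (10 arrays), against 9.87 in DT40 (10 arrays). The 3 lines built on the knockout were thus far below DT40 on every array, with a highest value of 5.97 and a lowest DT40 value of 9.34. The labels do not say whether that probe set reads the human constructs. All 10 measured markers of B cells were above the level of the dimmest 40% of probe sets (3.98 log2). Of markers of other cell types, 5 of 7 T-cell genes, 3 of 7 macrophage and dendritic cell genes, 0 of 1 thrombocyte gene and 3 of 6 fibroblast genes were above it. Each gene was read by its brightest probe set. By that measure 9990 of all 13009 genes were above the limit, so these counts say little about cell identity. The T-cell gene CD3D averaged 12.0 log2.

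CD83 signal is given as log2 RMA signal, and 3.98 log2 is used as the limit below which a level lies near background. CD83 was at or above that limit on 7 of 28 arrays. These were the 4 arrays of B41-13, the stimulated 2 h array of DT40 and the stimulated 6 h arrays of DT40 in serum batches 1 and 2. On all 14 arrays of B46-5 and B7.10 it stayed below, between 2.89 and 3.73 with a median of 3.16.

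In stimulated cells at 2 h, CD83 was at 9.06 log2 in B41-13, 3.73 in B46-5, 3.27 in B7.10 and 8.84 in DT40. The lines with an intact kinase were thus high and the other 2 were near background.

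In stimulated cells at 6 h, CD83 was at 6.29 log2 in B41-13 and 3.31 in B46-5. The 3 serum batches gave 3.13, 3.15 and 3.08 in B7.10, against 4.12, 5.41 and 3.54 in DT40. All 3 DT40 values were above all 3 B7.10 values, but the DT40 values were spread widely (SD 0.96) and those of B7.10 were not (SD 0.04).

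In unstimulated cells at 24 h, CD83 was at 4.17 log2 in B41-13 and 3.08 in B46-5. The serum batches gave 3.07, 3.27 and 2.89 in B7.10 and 3.24, 3.16 and 2.90 in DT40. In unstimulated cells at 6 h the values were 4.84 in B41-13, 3.18 in B46-5, 2.98, 3.22 and 3.18 in B7.10, and 3.29, 3.32 and 3.24 in DT40. The unstimulated values of B7.10 and DT40 overlapped at 24 h and were just separate at 6 h, with DT40 the higher.

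**Figure D1:**
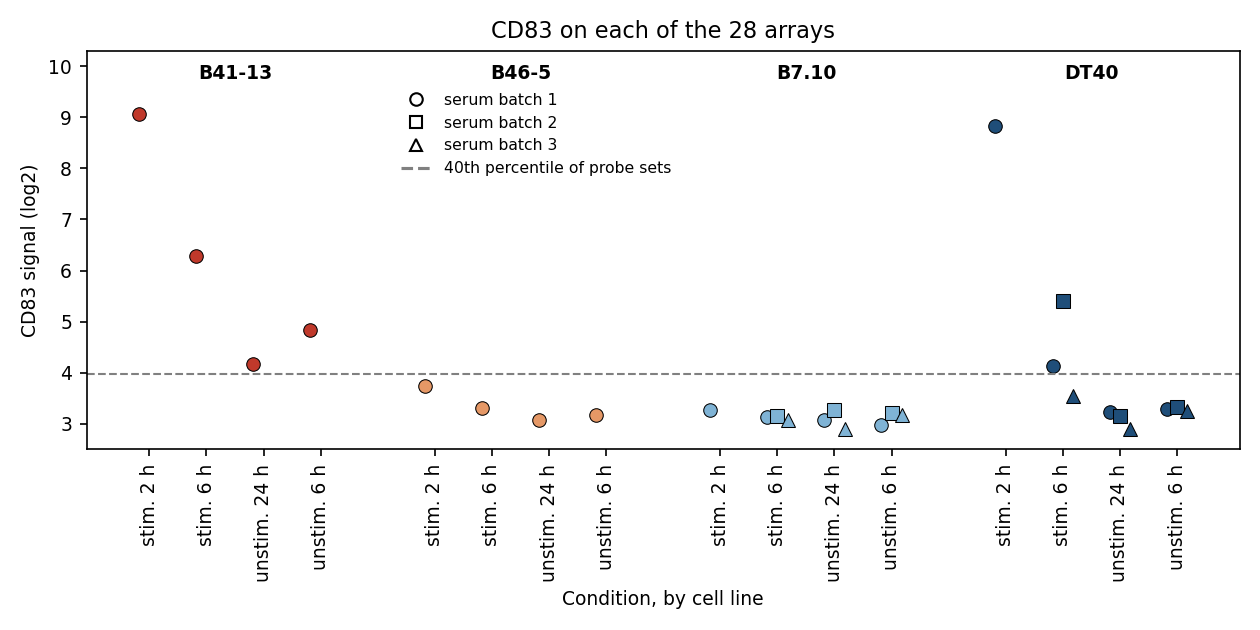
CD83 signal (log2, vertical axis) on each array, by cell line and condition. Each point is 1 array and its shape gives the serum batch. The dashed line marks 3.98 log2. The 2 h points of B41-13 (9.06) and DT40 (8.84) stand far above all others, and every point of B46-5 and B7.10 lies under the line.

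Ordered by mean level, the 16 combinations of line and condition ran from B41-13 at stimulated 2 h to B7.10 at unstimulated 24 h (3.08). The order of the upper groups was B41-13 stimulated 2 h, DT40 stimulated 2 h, B41-13 stimulated 6 h, B41-13 unstimulated 6 h, DT40 stimulated 6 h (4.36 ± 0.96, SD, n = 3), B41-13 unstimulated 24 h and B46-5 stimulated 2 h. The 2 highest groups differed by 0.22 and the fifth and sixth by 0.19. Both gaps were under the spread between arrays of a group (pooled SD 0.41 over the 6 groups of 3). The pooled SD owes most to DT40 stimulated 6 h, and the other replicated groups had SDs of 0.04 to 0.19. The lowest 9 groups all lay within 0.23 of each other. That range is under the pooled SD but above the SD of each replicated group among them. These levels all lay near background, some on 1 array, and no order is drawn from them. The gaps of 0.43 below the sixth group and 0.43 below the seventh just passed the pooled SD and were well above the smaller SDs. The groups on both sides of these gaps had 1 array each.

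Within serum batch 1, CD83 at 2 h of stimulation was higher than in unstimulated 6 h cells by 4.22 log2 in B41-13 (18.7-fold), 0.55 in B46-5, 0.29 in B7.10 and 5.54 in DT40. The DT40 baseline lay near background, so its change is given as at least 29.0-fold. Of all probe sets, 0.688% were at least 2-fold higher in B41-13, 0.271% in B46-5, 0.391% in B7.10 and 0.641% in DT40. In B41-13, where both levels were above the limit, CD83 had the second-largest increase of all probe sets. The 2 low changes were between levels that both lay near background, so they give no usable fold. Each of these changes is a difference between 2 single arrays and has no replicate check.

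The difference was smaller at 6 h than at 2 h in both lines with an intact kinase. At 6 h CD83 was 1.46 log2 above the unstimulated level in B41-13 (rank 10, 2.74-fold), which is 34.5% of its 2 h change on the log2 scale. In DT40 of the same serum batch, whose baseline lay near background, it was at least 1.11-fold higher at 6 h and at least 29.0-fold higher at 2 h. Set against its own 2 h array, the 6 h array was lower by 2.77 log2 in B41-13, the fifth-largest decrease of all probe sets. In DT40 it was lower by 4.71, the largest. These falls are measured from the same single 2 h arrays that gave the large increases of CD83, so their high ranks are in part built in.

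The 6 h difference from unstimulated cells varied with the serum batch in DT40, at 0.83, 2.09 and 0.30 in batches 1, 2 and 3, with a mean of 1.07 ± 0.92 (SD, n = 3). It was 0.56 without batch 2. In B7.10 the same difference was 0.15, -0.07 and -0.10, with a mean of -0.01 ± 0.14 (SD, n = 3). In B46-5 it was 0.13 on 1 pair of arrays. All 3 DT40 differences were above all 3 of B7.10. The DT40 baseline lay near background in each batch. Against the limit the 6 h level was at least 1.11-fold higher in batch 1 and at least 2.70-fold higher in batch 2, and in batch 3 both levels lay below it. The same holds for both levels of every pair in B7.10 and B46-5, so their differences give no usable fold.

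Without stimulation, the only line in which CD83 was above background was B41-13, and here the difference could be tested. Its log2 signal was 4.17 at 24 h and 4.84 at 6 h in B41-13, against 3.07 and 2.98 in B7.10 of the same serum batch. In a limma fit over the 8 unstimulated arrays of serum batch 1, with line and time as terms, CD83 in B41-13 exceeded that in B7.10 by 1.48 ± 0.15 log2 (SE, 2 arrays per line; 95% interval 1.14 to 1.81; Benjamini-Hochberg adjusted p = 3.98e-05). The fit called 5.61% of probe sets. It holds no repeated pool. Its moderated SEs combine how line differences vary between 6 h and 24 h with the spread of all probe sets. For CD83 the difference from B7.10 at 24 h lay below the interval and that at 6 h lay above it. The interval thus understates how far the CD83 difference varied between these times. B41-13 was also above B46-5 by 1.37 ± 0.15 (adjusted p = 5.97e-05, limma; 6.99% called) and above DT40 by 1.24 ± 0.15 (adjusted p = 0.000119, limma; 9.68% called). The other 3 lines lay near background, so the sizes of these fitted differences are uncertain. Set against the background limit, B41-13 was at least 1.44-fold higher.

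B46-5 carries the same construct without kinase activity, and its unstimulated CD83 differed from B7.10 by 0.11 ± 0.15 log2 (95% interval -0.23 to 0.44, limma adjusted p = 0.861) and from DT40 by -0.13 ± 0.15 (-0.47 to 0.20, adjusted p = 0.768). The fits called 4.28% and 6.42% of probe sets. A difference between levels that all lie near background was not detectable, and the intervals do not show that the lines are alike.

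The loss of BTK by itself was compared in unstimulated cells over the 3 serum batches. The SE came from a fit of 6 groups of 3 arrays that includes the stimulated 6 h arrays. CD83 had an SD of 0.96 in stimulated 6 h DT40, against 0.04 to 0.19 in the unstimulated groups. The stimulated DT40 values thus widen the intervals. CD83 differed between B7.10 and DT40 by -0.02 ± 0.28 log2 at 24 h (SE, 3 arrays each; 95% interval -0.60 to 0.56; limma adjusted p = 0.984; 4.44% of probe sets called) and by -0.16 ± 0.28 at 6 h (-0.74 to 0.42, adjusted p = 0.855; 4.83% called). At 24 h minus 6 h without stimulation it differed by -0.05 in B7.10 (adjusted p = 0.964, limma; 0.232% called) and -0.19 in DT40 (adjusted p = 0.825, limma; 0.573% called). The change over time differed between the lines by 0.14 ± 0.39 (adjusted p = 0.970, limma; 0.00521% called). None of these passed the test, and no direction is drawn from them.

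The serum batch comparison used the same 6 groups, including stimulated 6 h arrays, by which CD83 was assumed to have been chosen. Serum batches differed in mean CD83 by 0.28 for batch 2 minus batch 1 and -0.17 for batch 3 minus batch 1. DT40 stimulated 6 h was at 4.12, 5.41 and 3.54 in batches 1, 2 and 3. DT40 unstimulated 6 h was at 3.29, 3.32 and 3.24. At unstimulated 24 h batch 3 was the lowest in both lines. There B7.10 was at 3.07, 3.27 and 2.89 and DT40 at 3.24, 3.16 and 2.90 in batches 1, 2 and 3, all near background. The means thus mix the stimulated response with differences between unstimulated arrays. A general shift of CD83 was not tested apart from that response. The F test over the 6 groups did not pass (adjusted p = 0.300, limma; 0.776% of probe sets called).

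The genes whose pattern across the 28 arrays was most like that of CD83 were taken from 9990 genes above the background limit. By level they were TNFAIP3 (Pearson r 0.958, Spearman rho 0.753), the Ras exchange factor gene RASGEF1A (0.951 and 0.740), the CCCH zinc-finger gene ZC3H12D (0.938 and 0.690), IRAG2 (0.905 and 0.768), the inhibitor of apoptosis gene BIRC2 (0.903 and 0.690) and the endoplasmic reticulum stress gene HERPUD1 (0.897 and 0.825). TNFAIP3 encodes A20, an enzyme that edits ubiquitin and restrains NF-kB. Much of each r comes from the 2 h arrays of B41-13 and DT40. Over the other 26 arrays r was 0.820 for TNFAIP3, 0.815 for RASGEF1A, 0.836 for ZC3H12D, 0.768 for IRAG2, 0.645 for BIRC2 and 0.719 for HERPUD1. With the mean of each line removed, the nearest gene was TRAF3 (r 0.943, and 0.846 over 26 arrays), an adaptor of TNF-family receptors. It was followed by TNFAIP3, RASGEF1A and ZC3H12D again, then by the adaptor SH3BP2 (0.922) and PIK3R5 (0.912), a regulatory subunit of a phosphoinositide 3-kinase. Over the 26 arrays these fell to 0.726 for TNFAIP3, 0.756 for RASGEF1A, 0.714 for ZC3H12D, 0.629 for SH3BP2 and 0.740 for PIK3R5. These values describe likeness over arrays that share their pools, lines and scaling, and carry no test.

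The alike genes did not all move by the same amount. TNFAIP3 at 2 h was higher than in unstimulated 6 h cells by 3.39 log2 in B41-13, 0.19 in B46-5, 0.45 in B7.10 and 3.67 in DT40. RASGEF1A was higher by 3.36, 1.22, 0.15 and 4.51 in the same lines, so B46-5 also had a change in RASGEF1A where CD83 had little. IRAG2 was higher by 2.15, 0.70, 1.27 and 2.31, and BIRC2 by 0.88, 0.15, 0.25 and 0.84. The other BIRC2 probe sets changed less, by 0.40, 0.01, -0.01 and 0.50 on 1 and by -0.12, 0.11, 0.19 and -0.14 on the next. ZC3H12D had 2 dimmer probe sets that averaged below the background limit. They changed by 0.02, 0.09, 0.06 and 0.08 and by 0.83, -0.05, 0.24 and 0.74. Unstimulated B41-13 was above B7.10 for TNFAIP3 too, by 0.83 at 24 h and 1.04 at 6 h, and for RASGEF1A by 1.21 and 1.65. These genes were picked by likeness over arrays that include the same unstimulated ones, so a shared offset is in part built in. The genes picked only with line means removed had smaller offsets at 24 h and 6 h. They were 0.06 and 0.27 for TRAF3, 0.15 and 0.35 for SH3BP2, and 0.33 and 0.48 for PIK3R5.

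**Figure D2:**
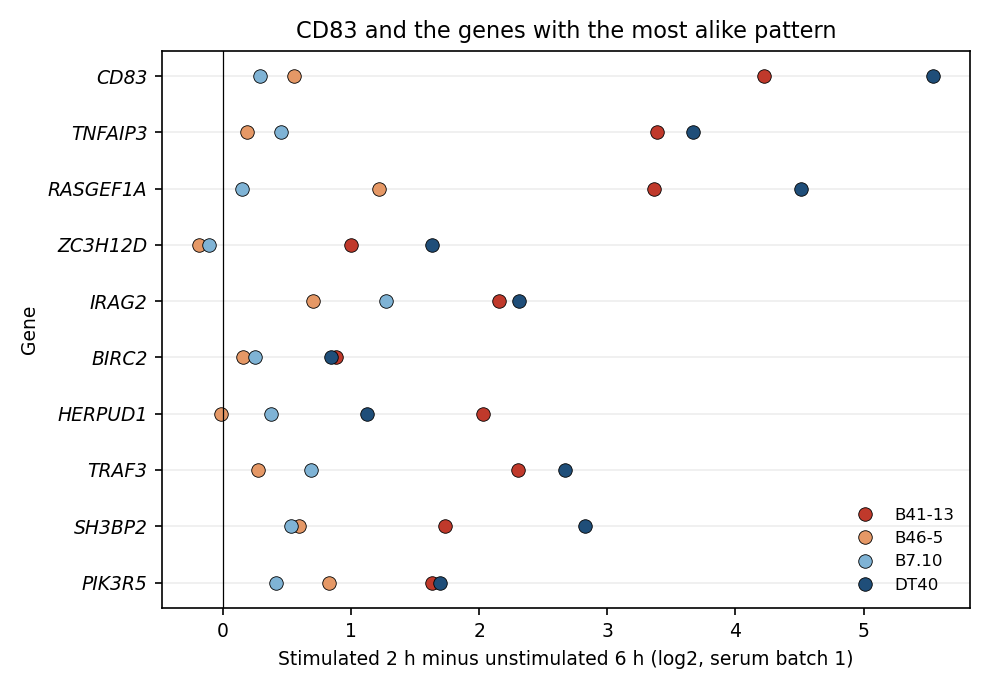
Change at 2 h of stimulation (log2, horizontal axis; stimulated 2 h minus unstimulated 6 h in serum batch 1) for CD83 and the genes most like it over the arrays. Each point is the difference between 2 arrays of 1 line. For CD83 the points lie at 4.22 for B41-13, 0.55 for B46-5, 0.29 for B7.10 and 5.54 for DT40.

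The genes that neighbour CD83 in the reference gene table had other 2 h changes, given here without a test. RNF182, the nearest on one side, differed by -0.07 log2 in B41-13, -0.08 in B46-5, -0.20 in B7.10 and 0.33 in DT40. MCUR1, beyond it, differed by -0.42, -0.48, -0.72 and -0.46 in the same lines. JARID2, a Polycomb-associated chromatin protein gene on the other side, differed by 0.87, 0.85, 0.88 and 0.41, and DTNBP1 beyond it by -0.31, -0.10, 0.01 and -0.30. JARID2 was thus higher in B46-5 and B7.10 by about as much as in B41-13.

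How CD83 compared with the rest of the early response was read from 2 contrasts in serum batch 1, neither of which gives a p for CD83. One took the mean 2 h change of the 4 lines. The other took the 2 h change in lines with an intact kinase (B41-13 and DT40) minus that in lines without one (B46-5 and B7.10), over 8 arrays, and was added after the values of CD83 had been seen. In it the CD83 change averaged 4.88 log2 in B41-13 and DT40 and 0.42 in B46-5 and B7.10. The baseline of DT40 and all levels of B46-5 and B7.10 lay near background, so the size of the CD83 difference is uncertain and it is not ranked.

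**Figure D3:**
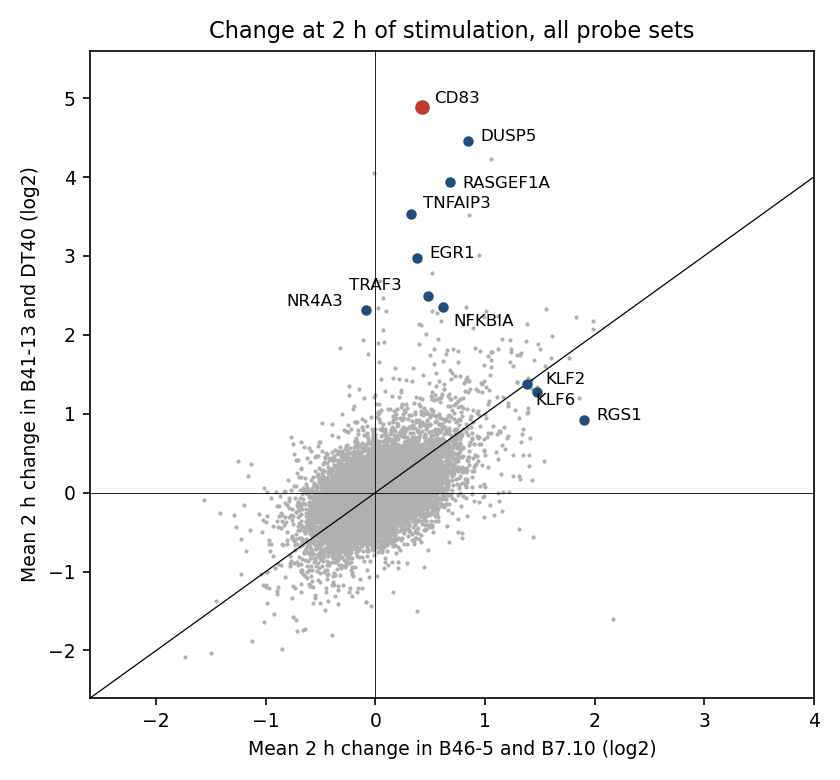
Mean 2 h change (log2) in B41-13 and DT40 (vertical axis) against that in B46-5 and B7.10 (horizontal axis). Each grey point is a probe set, the diagonal marks equal change and 11 genes are labelled. CD83 lies at 4.88 against 0.42, while KLF2 and KLF6 lie close to the diagonal.

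NF-kB and IRF factors bind the CD83 promoter and enhancer in human cells. The list of NF-kB and IRF genes also holds other members of the NF-kB pathway, such as NFKBIA, TNFAIP3 and NFKBIZ. Its counts are therefore not counts of known CD83 regulators. At 2 h, averaged over the 4 lines, 6 of the 17 measured passed the test, all higher, where 3.53% of probe sets were called higher and 4.44% lower. They were NFKB1 at 0.87 log2 (adjusted p = 0.00617, limma), REL at 0.75, NFKBIA at 1.48, TNFAIP3 at 1.93, IRF2 at 0.37 and IRF4 at 0.55. The list median was 0.32, against -0.03 over all probe sets. In the contrast by kinase status 4 of 17 passed, all with the larger change in B41-13 and DT40, where 0.177% of probe sets were called in that direction and 0.25% in all. NFKBIA encodes the NF-kB inhibitor that NF-kB itself induces, and its 2 h change was 2.52 in B41-13, 0.57 in B46-5, 0.67 in B7.10 and 2.17 in DT40. The difference was 1.73 (adjusted p = 0.00433, limma). It was 3.20 for TNFAIP3, 1.08 for NFKB1 and 1.24 for NFKBIZ, an inhibitor-related nuclear cofactor. IRF1 went the other way, at -1.24, and did not pass (adjusted p = 0.0979, limma). Its 2 h change was 0.17 in B41-13, 1.45 in B46-5, 0.81 in B7.10 and -0.39 in DT40. At an unadjusted limma p under 0.05, 7 list members were higher and 2 lower, where 9.56% of all probe sets passed in either direction. NFKB1 did not pass without either B41-13 array of the contrast (1.02, adjusted p = 0.0569), and NFKBIZ not without either DT40 array (1.00, adjusted p = 0.0631) or without the dimmest probe sets (adjusted p = 0.0568). With trend and robust moderation the 2 h mean of TNFAIP3 did not pass (adjusted p = 0.124).

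Early receptor-induced genes gave the largest count. Of 27 measured, 12 passed at 2 h over the 4 lines, all higher, with a median of 0.48 log2 for the list, where 3.53% of all probe sets were called higher. The ERK phosphatase gene DUSP5 was highest at 2.65, followed by EGR1 at 1.68 and ATF3 at 1.59. Split by kinase status, 6 of 27 passed, all with the larger change in B41-13 and DT40, against 0.177% of all probe sets. They were the phosphatase DUSP5 (3.61), the zinc-finger factor EGR1 (2.60), the nuclear receptors NR4A3 (2.40) and NR4A2 (1.71), the bZIP factor ATF3 (1.52) and the antiproliferative BTG2 (1.16). EGR1 and NR4A3 averaged below the background limit over the arrays. A second DUSP5 probe set differed by 2.64. With trend and robust moderation DUSP5 passed neither by kinase status (adjusted p = 0.207) nor over the 4 lines (adjusted p = 0.0569), and over the 4 lines EGR1 (adjusted p = 0.126) and NR4A2 (adjusted p = 0.0826) did not pass.

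Some early genes were higher at 2 h in all 4 lines. The zinc-finger factor KLF6 was higher at 2 h by 1.74 log2 in B41-13, 1.47 in B46-5, 1.29 in B7.10 and 1.01 in DT40, with a mean of 1.38 (adjusted p = 2.58e-07, limma). KLF2 had a mean of 1.37 (adjusted p = 4.70e-07, limma), with 1.66, 1.37, 1.57 and 0.89 in the same lines. Their differences by kinase status were -0.01 and -0.20 and did not pass. The other KLF6 probe sets had larger differences, 0.92 (adjusted p = 0.257, limma) and 0.55 (adjusted p = 0.337, limma), which did not pass either. The brighter of them changed by 2.30 in B41-13, 1.00 in B46-5, 0.83 in B7.10 and 1.36 in DT40. RGS1, a regulator of G-protein signalling, rose by 1.41 on average. It changed by 0.73 in B41-13, 1.83 in B46-5, 1.98 in B7.10 and 1.11 in DT40, and the difference of -0.99 by kinase status did not pass (adjusted p = 0.0705, limma). KLF2 and RGS1 were thus at least 2-fold higher at 2 h in both lines without BTK kinase activity, and KLF6 was so on 1 of its 3 probe sets.

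Of 13 other activation and co-stimulation genes of the cell surface, 1 passed at 2 h over the 4 lines, a share near that of all probe sets (3.53% higher and 4.44% lower). It was the TNF-family receptor gene TNFRSF13B, at 0.87 log2 (adjusted p = 0.000958, limma), but its second probe set changed by -0.09 (adjusted p = 0.681, limma). CD40 had a mean 2 h change of 0.17 and CD86, the co-stimulatory ligand that CD83 stabilises in mammals, one of -0.12. By kinase status 1 of 13 passed, where 0.177% of all probe sets were called higher and 0.25% in all. It was TNFRSF1B (TNF receptor 2), at 1.31 (adjusted p = 0.0228, limma), but its other 3 probe sets did not pass (1.04, 0.90 and 0.19).

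The MHC class II list holds class II chain and ligase genes beside genes of peptide exchange, processing and transcription. Its counts are therefore not counts of molecules that CD83 protects in mammals. By limma 0 of its 10 measured members were called at 2 h over the 4 lines. With 3.53% of all probe sets called higher and 4.44% lower, that count is near the general share. At an unadjusted limma p under 0.05 there was 1 member, where 21.5% of all probe sets passed. In unstimulated cells 4 of 10 were higher in B41-13 than in B7.10, where 2.57% of probe sets were called higher. BLB1, a class II beta chain gene, was at 8.19 log2 at 24 h and 8.49 at 6 h in B41-13, against 4.82 and 5.42 in B7.10. Kinase-inactive B46-5 was also above B7.10, at 6.71 and 6.81, while DT40 was at 4.96 and 5.52. The fitted difference between B41-13 and B7.10 was 3.22 ± 0.13 (SE; adjusted p = 3.60e-09, limma). Of the other 4 BLB1 probe sets, 2 passed, at 2.44 and 0.56, and the remaining differences were 0.34 and 0.06. The peptide-exchange gene DMA was higher by 1.00 ± 0.16, the invariant chain gene CD74 by 0.78 ± 0.12, and the class II transactivator CIITA, which averaged below the background limit, by 0.54 (adjusted p = 0.0346, and 0.0678 after cyclic loess scaling). BLB1 belongs to a family of near-identical genes, and its probe sets may read more than 1 of them.

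**Figure D4:**
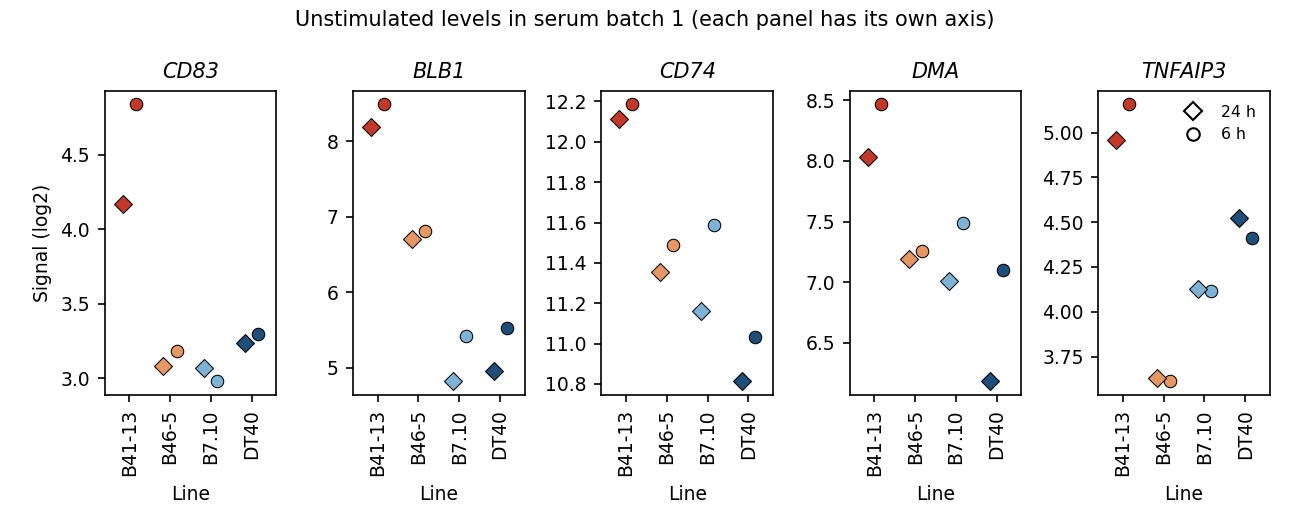
Unstimulated log2 signal of CD83, BLB1, CD74, DMA and TNFAIP3 in the 4 lines of serum batch 1, each point 1 array at 24 h (diamond) or 6 h (circle). Each panel has its own vertical axis. In all 5 panels both points of B41-13 lie above the points of the other lines.

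Other lists also held genes higher in unstimulated B41-13 than in B7.10, where 2.57% of all probe sets were called higher. Of 27 early receptor-induced genes 10 were higher, led by the ERK-pathway inhibitor SPRY2 (2.54 ± 0.13 log2) and KLF2 (1.67 ± 0.12). Of the 17 NF-kB and IRF genes 5 were higher, with TNFAIP3 at 0.94 and IRF4 at 0.73. Without any 1 of the 4 arrays of B41-13 and B7.10, the first count was 3 to 5 and the second 2 or 3. Of 6 CD83 mRNA export and stability factors, ZFP36L2 and ANP32A were higher by 0.92 and 0.72, and ELAVL1 differed by -0.08, while another ELAVL1 probe set was lower by 0.45 (log2 difference -0.45, adjusted p = 0.0313, limma). Proximal receptor signalling genes were mixed, with 6 of 17 higher and 2 lower, where 3.04% of probe sets were called lower. Among them were PIK3CD at 1.09 (0.43, 0.30 and -0.01 on its other probe sets) and PRKCB (protein kinase C beta) at -1.10. The 6 include BTK itself, at 0.55, which is the gene altered in these lines. The labels do not say whether its probe set reads the human construct. At 2 h over the 4 lines 3 of the 17 signalling genes passed higher and 1 lower, where 3.53% of all probe sets were called higher and 4.44% lower. Of the 6 export and stability factors ZFP36L2 alone passed, at 1.00.

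RNA was taken from whole cultures, so a level of CD83 cannot separate the share of cells that express it from the amount per cell.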

How the data were processed

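The authors deposited 1 log2 signal for each probe set, computed with RMA according to the submitters' processing notes, which name no version. RMA brings arrays to 1 distribution and compresses low levels. Samples were grouped by title. Of 38535 probe sets, 153 control and reporter sets were left out. Symbols came from the platform table, and a gene was represented by its brightest probe set.

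Limma 3.58.1 in R 4.3.3 gave moderated tests with Benjamini-Hochberg adjustment over 38382 probe sets, called under 0.05. Fits were 6 groups of 3 arrays (12 residual degrees of freedom), 8 unstimulated arrays of serum batch 1 by line and time (3), the 16 arrays of that batch by line and condition (9), and 8 arrays for the difference by kinase status (2), where no pool was repeated within a line. Figures used matplotlib 3.10.9 under Python 3.11.15.

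The gene, lists and tests were chosen with earlier results of these data known. Named genes were CD83, BTK, the 6 most correlated genes by each measure, and list members with the largest 2 h changes or smallest adjusted p between lines. Others, and the genes of the kinase contrast, were named after their values were seen.

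Replicate numbers are serum batches, which the labels describe as shared, so they pair B7.10 and DT40 arrays. Deviations correlated at a median of 0.12 within batches (45 pairs) and -0.06 between them (90 pairs).

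The fits were tested on simulated data with known changes. For B7.10 minus DT40 at unstimulated 6 h, 38% of changes of 0.5 log2 and 90% of 1 log2 were recovered. For B41-13 minus B7.10 the shares were 4% and 70%. The contrast by kinase status recovered 0% of changes of 1 log2, 56% of 2 and 88% of 4. A gene that did not pass that contrast may therefore still differ. The number of arrays limits the precision. Alternatives were a serum block, cyclic loess, trend and robust moderation, no dim probe sets, other array sets and leaving out each array.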

Additional observations from a re-analysis of the deposited data

Results flagged for a closer look

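For 11 list genes the 2 h change differed between lines with and without an intact BTK kinase by a test of the difference itself (limma, adjusted p under 0.05), with the larger change in B41-13 and DT40. These were 6 of 27 early receptor-induced genes, 4 of 17 NF-kB and IRF genes and 1 of 13 activation genes. No gene of the other lists passed. Of all probe sets, 0.177% were called in that direction and 0.25% in all. The log2 differences, for B41-13 and DT40 minus B46-5 and B7.10, were 3.61 for DUSP5, 3.20 for TNFAIP3, 2.60 for EGR1, 2.40 for NR4A3, 1.73 for NFKBIA and 1.71 for NR4A2. They were 1.52 for ATF3, 1.31 for TNFRSF1B, 1.24 for NFKBIZ, 1.16 for BTG2 and 1.08 for NFKB1. For all 11 genes the change in B41-13 and in DT40 exceeded that in both B46-5 and B7.10. The contrast was added after the values of CD83 had been seen, and rests on 1 array per line and condition. DUSP5, NFKB1 and NFKBIZ did not keep their calls under every alternative, and the other probe sets of TNFRSF1B did not pass.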

How the results depend on the processing

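CD83 in unstimulated B41-13 kept its direction and call against B7.10, B46-5 and DT40 under 12 other alternatives each. The planned fit with all 16 arrays of serum batch 1 averages in stimulated values, by which CD83 was assumed to have been chosen. It thus measures another quantity and is no check of the unstimulated one. It gave 2.98, 2.76 and 1.22 for B41-13 minus B7.10, B46-5 and DT40, the last not past the threshold, and -1.55 for B46-5 minus DT40. Comparisons that did not pass changed sign: leaving out 1 array gave -0.12 to 0.071 for B7.10 minus DT40 at 24 h (0.047 and 0.0085 without DT40 batches 1 and 2, 0.071 without B7.10 batch 3), -0.15 to 0.041 for 24 h minus 6 h in B7.10, and -0.076 to 0.29 for B46-5 minus B7.10. The 6 h response in B7.10 was 0.15 without the disputed arrays. With the serum batch as replicate block, B7.10 minus DT40 was -0.02 at 24 h (adjusted p = 0.979) and -0.16 at 6 h (adjusted p = 0.806), and the block changed no other call of CD83. CD83 averages under the limit for dim probe sets and was kept in by hand where they were left out. Other CD83 probe sets could not be tried, because there is 1.

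The following alternatives for counts were chosen after seeing the data. In the contrast by kinase status, 68 probe sets were called higher and 28 lower. Trend and robust moderation gave 237 and 183, leaving out the dimmest 40% gave 42 and 18, and leaving out 1 array gave 93 to 205 higher and 44 to 167 lower. Its list counts stayed within 1.5 times of those reported. At 2 h over the 4 lines, leaving out 1 array gave 839 to 1757 probe sets lower and 0 to 2 receptor signalling genes lower, 2 under trend and robust moderation. For B41-13 minus B7.10, leaving out 1 array gave 487 to 1094 probe sets higher and 481 to 1347 lower. The higher counts were then 3 to 10 for early receptor-induced genes, 2 to 5 for NF-kB and IRF genes, 2 to 6 for receptor signalling (1 to 3 lower), 1 to 2 for export and stability factors, and 0 to 2 for activation genes (0 to 1 lower, 0 after cyclic loess). Fewer arrays were fitted in each of these, and the cause of the other changes was not tested.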
